A study of Mus musculus with 6 samples.

Results

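The mineralisation and phosphate handling genes were 10 genes picked by name: Enpp1, Ank, Alpl, Phospho1, Slc20a1, Slc20a2, Spp1, Ibsp, Mgp and Pth1r. All 10 were found among the 28812 genes of the table, each in 1 row, and all 10 passed the filter on low counts, which left 17290 genes to be tested. RNA was sequenced from 6 libraries of cultured mouse chondrocytes, the cells of cartilage, labelled as osteoarthritic (OA) and of wild-type genotype. All 6 had been treated with interleukin-1 beta (IL-1β), an inflammatory cytokine. In 3 libraries the cells had also been given vehicle and in 3 they had been given mitochondria, which the series title traces to osteocytes, the cells embedded in bone. The labels give no strain, age, dose or time, and no library without IL-1β was analysed here. They do not say whether the 3 libraries of a group came from separate cultures or animals, so p-values measure only the spread between these libraries.

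Cartilage mineral forms when phosphate and calcium build up in small vesicles shed into the matrix, and inorganic pyrophosphate outside the cell holds that process back. Pyrophosphate is made from extracellular ATP by Enpp1, its supply to the outside of the cell depends on Ank, and it is broken down to phosphate by the alkaline phosphatase Alpl. Phospho1 releases phosphate from phospholipid head groups inside the vesicles, Slc20a1 and Slc20a2 carry phosphate into cells, Spp1 (osteopontin), Ibsp (bone sialoprotein) and Mgp (matrix Gla protein) bind mineral or calcium in the matrix, and Pth1r receives the signal of parathyroid hormone-related protein that delays chondrocyte maturation. Crystals of calcium pyrophosphate and of calcium phosphate are known from osteoarthritic joints.

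The libraries held 63547854 to 66293786 deposited counts, and about 4 counts were taken as 1 sequenced fragment. On the first principal component (43.0% of the variance) vehicle replicate 1 had a score of -30.39 while vehicle replicates 2 and 3 had -56.75 and -56.36, and mitochondria replicate 1 (81.44) lay apart from mitochondria replicates 2 and 3 (27.36 and 34.70). Counts were detected for all 15 chondrocyte markers, with a summed level of 1949 to 2311 CPM (counts scaled to depth) with vehicle and 1605 to 1853 CPM with mitochondria. The markers went both ways: Sox9 and Acan rose and Hapln1 and Col11a1 fell (2 higher and 2 lower of 15, against 6.36% and 8.46% of all genes). Col11a1 fell from 614 to 320 CPM, and Acan rose by 0.54 on the log2 scale (adjusted p = 0.041, edgeR), and the Acan call was lost when any 1 library was left out. Sox9 passed in 2 of the 6 such fits, Hapln1 in 4 and Col11a1 in 6. Col2a1, the main cartilage collagen, lay at 88.1 to 123 FPKM (fragments for each kilobase of transcript after scaling for depth), while Acan, the core protein of aggrecan, lay at 1.61 to 2.90 FPKM.

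Mgp, Slc20a1 and Ibsp fell and Phospho1 rose in chondrocytes given mitochondria, and the other 6 genes did not pass the test. Mgp, a calcification inhibitor, was 1.74-fold lower, Slc20a1, a phosphate importer, 1.55-fold lower, Ibsp, a barely detected bone matrix protein, 4.95-fold lower, and Phospho1, the vesicle phosphatase, 1.97-fold higher. Which reads belong to Phospho1 is uncertain, because 89.6% of its exonic bases also lie in exons of another gene, Zfp652. The test was edgeR's quasi-likelihood test with p-values adjusted over all 17290 genes. It called 4 of the 10 genes at an adjusted p under 0.05, against 14.8% of all genes tested, with 1 higher (background 6.36%) and 3 lower (background 8.46%). On the CPM scale the groups were fully apart for 5 of the 10, with Phospho1 higher and Mgp, Slc20a1, Ibsp and Alpl lower, against 40.7% of all genes (19.8% higher and 20.9% lower). The median log2 fold change of the 10 was -0.18, and that of all genes was 0.00. The count of calls changed with the libraries used: without vehicle replicate 2 only Mgp and Slc20a1 passed, against 2.5% of all genes, without mitochondria replicate 1 Spp1 passed as well (all genes 15.4%), and Ibsp did not pass when vehicle replicate 1, vehicle replicate 3 or mitochondria replicate 3 was left out (all genes 11.8%, 2.46% and 6.28%). The same 4 genes passed without mitochondria replicate 2 (all genes 13.4%), with RLE or upper-quartile scaling (14.9% and 16.2%), with no filter (3.32%), in DESeq2 (12.6%) and with counts divided by 4 (20.3%). Ibsp was lost with a replicate block (all genes 13.2%) and was not tested in limma on log2(FPKM + 1) or log2(FPKM + 0.1) (22.2% and 20.9%), and Phospho1 was lost in limma with no filter (1.77%). RNA was pooled over all cells of a culture, so fewer cells of a type and less RNA per cell cannot be told apart for any of these genes.

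**Figure D1:**
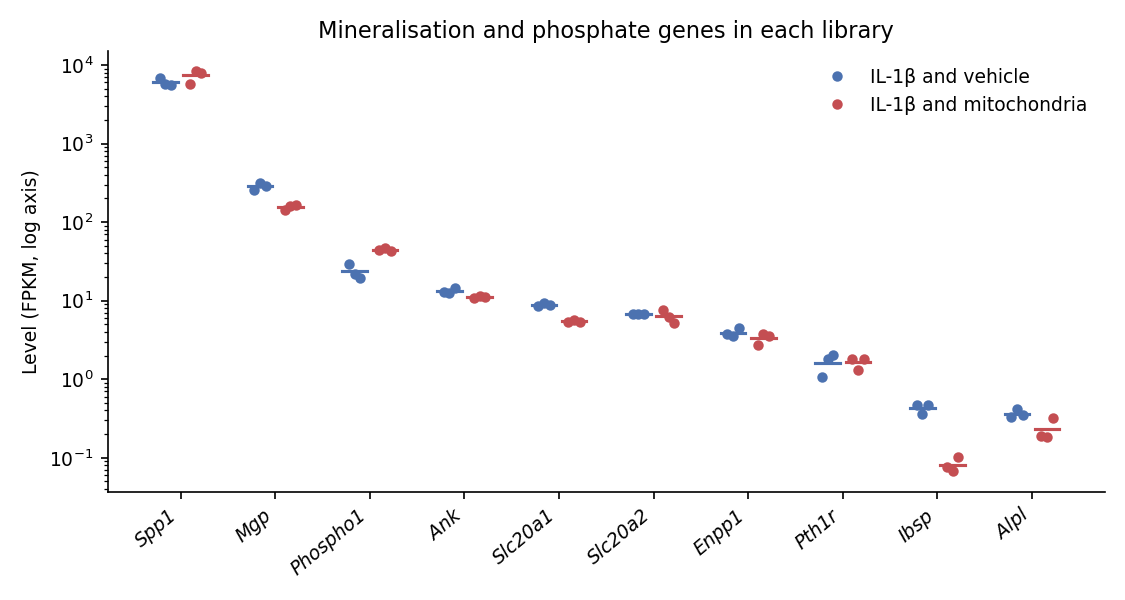
Level of each of the 10 genes (FPKM, log axis) in every library, with 3 points per group and a bar at the group mean; blue is IL-1β with vehicle and red is IL-1β with mitochondria. Spp1 sits near the top of the scale in all 6 libraries, and Ibsp and Alpl lie under 0.5 FPKM. In FPKM the 2 groups of Mgp, Slc20a1, Ibsp, Phospho1, Ank and Alpl do not overlap. In CPM those of Ank do, and 40.7% of all genes had groups apart on that scale.

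Levels per transcript length spanned 4 orders of magnitude. With vehicle the order by mean FPKM was Spp1, Mgp, Phospho1, Ank, Slc20a1, Slc20a2, Enpp1, Pth1r, Ibsp and Alpl, and only Ibsp (0.362 to 0.471 FPKM) and Alpl (0.332 to 0.414 FPKM) overlapped as neighbours. With mitochondria Slc20a2 (5.24 to 7.53 FPKM) and Slc20a1 (5.27 to 5.73 FPKM) changed places and overlapped, and Alpl came before Ibsp. The place of Phospho1 in both orders rests on exons that other genes share. Spp1 stood for 93.9% to 97.3% of the summed FPKM of the 10 genes. It had the highest FPKM of all 28812 genes in each vehicle library, rank 3 in mitochondria replicate 1 and rank 2 in mitochondria replicates 2 and 3.

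Promoter sequence from RefSeq (GRCm38.p6, 250 bases before to 50 after a start site) was found for 8 of the 10 genes. The stretches below are shown because they belong to the changed genes Slc20a1, Phospho1 and Ibsp and to Spp1, the chromosome 5 neighbour of Ibsp. They cover chr2:129198524-129198763 (Slc20a1), chr11:95824259-95824498 (Phospho1), chr5:104434871-104435110 (Spp1) and chr5:104299221-104299250 (Ibsp), all on the plus strand and written 5′ to 3′. The Ibsp stretch is short because GENCODE annotates its first exon there. Capitals mark matches, on either strand, to CCAAT (the box bound by NF-Y), TGTGGT (the core read by RUNX factors), TGANTCA (AP-1), CACGTG (an E-box) and TATAAA (the TATA box), and no 2 marked matches overlap.
Slc20a1: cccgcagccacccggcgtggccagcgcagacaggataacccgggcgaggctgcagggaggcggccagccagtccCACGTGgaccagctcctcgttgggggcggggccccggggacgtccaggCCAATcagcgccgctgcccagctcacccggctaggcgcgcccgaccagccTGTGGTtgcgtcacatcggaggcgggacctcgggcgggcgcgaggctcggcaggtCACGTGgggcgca
Phospho1: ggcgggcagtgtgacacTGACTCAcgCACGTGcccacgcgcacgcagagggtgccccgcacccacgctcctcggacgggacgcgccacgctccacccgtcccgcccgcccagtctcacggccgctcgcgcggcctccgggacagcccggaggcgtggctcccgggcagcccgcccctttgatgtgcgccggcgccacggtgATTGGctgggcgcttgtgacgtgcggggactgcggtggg
Spp1: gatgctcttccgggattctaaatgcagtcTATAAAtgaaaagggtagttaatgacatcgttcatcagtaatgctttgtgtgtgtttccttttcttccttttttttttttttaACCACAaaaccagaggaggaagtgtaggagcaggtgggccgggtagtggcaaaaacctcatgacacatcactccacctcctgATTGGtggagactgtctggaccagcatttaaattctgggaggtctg
Ibsp: gccacagctgtgATTGGctgttgagaggcg

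In the first listed window of each gene, CCAAT was found in 5 of the 8 genes (Slc20a1, Phospho1, Spp1, Ibsp and Pth1r), and 37.4% of all 32851 RefSeq windows held it. The RUNX core was found in 3 (Enpp1, Slc20a1 and Spp1; 16.8% of all windows), TATAAA in 3 (Slc20a1, Spp1 and Ibsp; 13.6%), the E-box in 2 (Slc20a1 and Phospho1; 7.15%) and AP-1 in 1 (Phospho1; 7.81%). CCAAT occurred in the windows of both Phospho1, which rose, and of Slc20a1 and Ibsp, which fell. The TATAAA match began at -211 from the start in Spp1, at -28 in Ibsp and at -1 in Slc20a1. The Ibsp and Slc20a1 matches lie outside the printed stretches. Whether any of them works as a TATA box was not tested. All of these are matches of letters, chosen after the sequences were seen, and no binding was measured.

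Neither gene of pyrophosphate supply passed the test. Enpp1, the ectoenzyme that splits ATP into AMP and pyrophosphate (ENSMUSG00000037370, chromosome 10, 24637914 to 24712159, minus strand, GRCm38), lay at 3.82, 3.52 and 4.43 FPKM in vehicle replicates 1 to 3 and at 2.76, 3.74 and 3.50 FPKM in mitochondria replicates 1 to 3. Its groups overlapped, and the log2 fold change was -0.17 ± 0.14 (SE; 95% interval -0.49 to 0.16; adjusted p = 0.48, edgeR). Ank, a membrane protein needed for the release of ATP and pyrophosphate (ENSMUSG00000022265, chromosome 15, 27466677 to 27594909), lay at 13.1, 12.3 and 14.6 FPKM with vehicle and at 10.7, 11.6 and 11.2 FPKM with mitochondria. The vehicle values of Ank were above the mitochondria values in FPKM and met them in CPM, and its log2 fold change of -0.19 ± 0.10 (interval -0.42 to 0.05; adjusted p = 0.25, edgeR) did not pass in any of the 16 alternatives.

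Alpl, which breaks pyrophosphate down at the cell surface (ENSMUSG00000028766, chromosome 4, 137741733 to 137796384, minus strand), was the faintest of the 10 with vehicle. It lay at 0.332, 0.414 and 0.350 FPKM with vehicle and at 0.191, 0.184 and 0.316 FPKM with mitochondria, so mitochondria replicate 3 came close to the lowest vehicle library without reaching it. The deposited counts summed to 316 with vehicle and 201 with mitochondria, which at 4 counts a fragment is 79 against 50 fragments. The log2 fold change was -0.58 ± 0.35 (SE; 95% interval -1.37 to 0.21; adjusted p = 0.29, edgeR). The ratio of those fragments, vehicle over mitochondria, was 1.58 (95% exact interval 1.09 to 2.29, for counting error only), while the interval of the fold change, which includes the spread between libraries, spans 0.

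Phospho1, the phosphatase of matrix vesicles (ENSMUSG00000050860, chromosome 11, 95824499 to 95832140), rose with mitochondria. It lay at 29.4, 22.1 and 19.4 FPKM in vehicle replicates 1 to 3 and at 43.6, 46.9 and 42.7 FPKM in mitochondria replicates 1 to 3. Every mitochondria library was above every vehicle library, and vehicle replicate 1 was the highest of its group. The means were 23.6 ± 5.18 and 44.4 ± 2.23 FPKM (SD, n = 3 per group), and the log2 fold change was 0.98 ± 0.16 (SE; adjusted p = 0.0079, edgeR). Without vehicle replicate 2 the log2 fold change was 0.92 (adjusted p = 0.0503), and in limma on log2(FPKM + 1) with no filter it was 0.90 (adjusted p = 0.052). It passed in the other 14 alternatives.

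The reads given to Phospho1 are uncertain because its exons are shared with other genes. Of 2029 annotated exonic bases, 1818 (89.6%) also lie in exons of Zfp652, a zinc-finger gene on the same strand, and 1708 of them lie in exons of Abi3 on the opposite strand. Strand use in the authors' counting is not given in the sources used here. Zfp652 held 6721, 5760 and 6130 counts with vehicle and 7127, 6435 and 6917 counts with mitochondria, with a log2 fold change of 0.20 ± 0.10 (SE; 95% interval -0.02 to 0.43; adjusted p = 0.19, edgeR). Abi3, an adaptor protein gene, held 140, 76 and 118 counts with vehicle and 24, 0 and 155 with mitochondria, far fewer than the 2804 to 6699 counts of Phospho1. How reads were divided among the 3 genes was not tested.

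**Figure D2:**
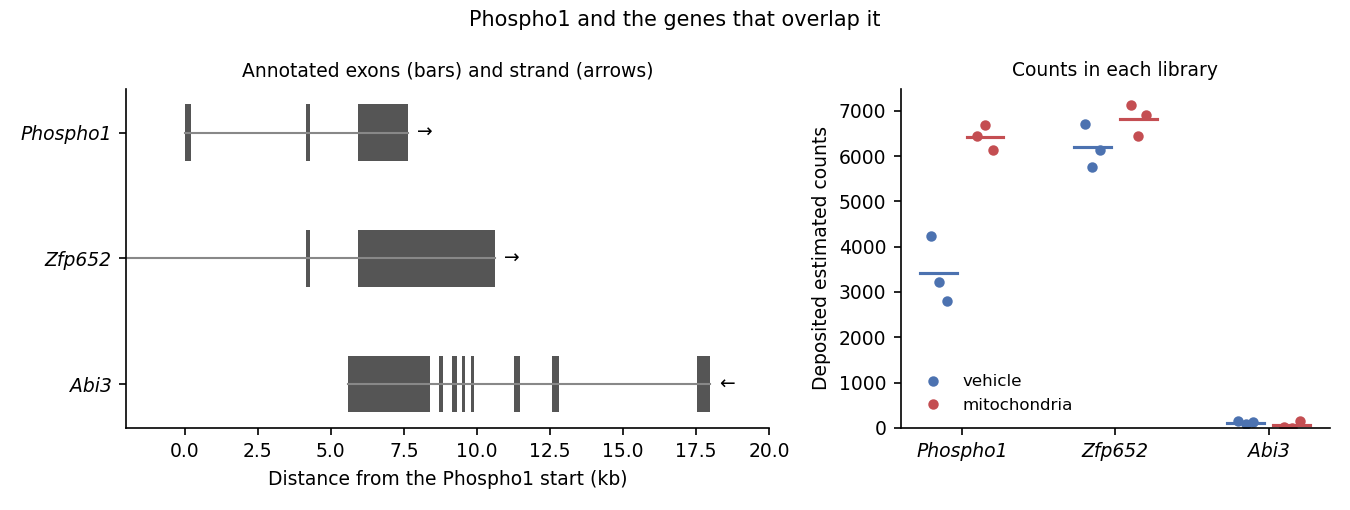
Left, annotated exons (bars) and strand (arrows) of Phospho1, Zfp652 and Abi3 against distance from the Phospho1 start (kb); the line of Zfp652 goes on beyond the left edge. Right, deposited counts of each gene by library with a bar at the group mean; the groups are apart for Phospho1 (2804 to 4233 and 6145 to 6699 counts), while Zfp652 spans 5760 to 7127 and Abi3 0 to 155.

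The phosphate importers, both sodium-dependent carriers, were unlike each other in the test. Slc20a1 (PiT-1; ENSMUSG00000027397, chromosome 2, 129198764 to 129211616) lay at 8.51, 9.26 and 8.80 FPKM with vehicle and at 5.27, 5.73 and 5.38 FPKM with mitochondria. All 3 mitochondria libraries were below all 3 vehicle libraries, and the spread within each group was small. It fell from 8.86 ± 0.38 to 5.46 ± 0.239 FPKM (SD, n = 3 per group), with a log2 fold change of -0.63 ± 0.09 (SE; adjusted p = 0.0067, edgeR). The call held in all 16 alternatives, with log2 fold changes of -0.69 to -0.57. Exons of Gm4430 and 9830144P21Rik, which lie on the opposite strand, share 280 and 452 of its 5580 exonic bases, and they held 62 to 183 and 19 to 58 counts.

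Slc20a2 (PiT-2; ENSMUSG00000037656, chromosome 8, 22476788 to 22569612) lay at 6.74, 6.68 and 6.82 FPKM with vehicle and at 7.53, 6.17 and 5.24 FPKM with mitochondria. The mitochondria values lay on both sides of the vehicle values. Its log2 fold change was -0.03 ± 0.14 (SE; 95% interval -0.34 to 0.29; adjusted p = 0.93, edgeR). The sign turned with upper-quartile scaling (0.04) and without mitochondria replicate 3 (0.10). The difference between the changes of Slc20a1 and Slc20a2 was not tested.

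Spp1, the acidic phosphoprotein osteopontin that binds mineral and cell-surface integrins (ENSMUSG00000029304, chromosome 5, 104435118 to 104441050), was abundant in both groups and did not pass. It lay at 6778, 5655 and 5619 FPKM with vehicle and at 5816, 8444 and 8027 FPKM with mitochondria. Mitochondria replicate 1 fell among the vehicle values, while mitochondria replicates 2 and 3 were above all of them. The log2 fold change was 0.37 ± 0.14 (SE; adjusted p = 0.12, edgeR). It passed without mitochondria replicate 1 (0.52, adjusted p = 0.0089) and with offsets for GC content (0.65, adjusted p = 0.0024; 19.3% of all genes passed with these offsets).

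Spp1 is also a gene of macrophages and osteoclasts. Of 14 macrophage markers all had counts and 11 were tested. Of these edgeR called 0 (2 at an unadjusted p under 0.05), against 14.8% of all genes, and DESeq2 called 1 lower of 14 (all genes 12.6%). With limma on log2(FPKM + 1), 0 of the 2 that passed its filter and 0 of 14 with no filter were called (all genes 22.2% and 1.77%). Leaving out vehicle replicate 1 gave 2 higher (Adgre1 and Marco; 11.8% of all genes called), and leaving out mitochondria replicate 2 gave 1 lower (C1qa; 13.4% of all genes). The summed level of the 14 was 50.4 to 65.9 CPM with vehicle and 43.3 to 55.0 CPM with mitochondria. Most of that sum was Lyz2, the lysozyme gene (16.4 to 33.0 FPKM), and Cd68, a lysosomal protein gene, lay at 1.996 to 4.67 FPKM, while Aif1 and Cx3cr1 did not reach 0.1 FPKM in any library. Osteoclast markers summed to 74.7 to 78.7 CPM with vehicle and 75.7 to 89.0 CPM with mitochondria. Of 9 listed, 8 had counts and 5 were tested: Mmp9, a gelatinase, rose and Ctsk, a collagen-degrading protease, fell (14.8% of all genes called), Ctsk passing in 1 of 6 fits with a library left out, and Ocstamp, Calcr and Atp6v0d2 stayed under 0.1 FPKM. The part of either cell type in the Spp1 level was not tested.

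Ibsp, a phosphoprotein that starts crystal growth in bone (ENSMUSG00000029306, chromosome 5, 104299171 to 104311469), fell with mitochondria from an already low level. It lay at 0.469, 0.362 and 0.471 FPKM with vehicle and at 0.0770, 0.0669 and 0.101 FPKM with mitochondria. The deposited counts were 69, 54 and 70 against 12, 10 and 15, so the groups were far apart but rested on about 48 and 9 fragments. The ratio of those fragments, vehicle over mitochondria, was 5.32 (95% exact interval 2.58 to 12.3, for counting error only). The log2 fold change was -2.31 ± 0.52 (SE; adjusted p = 0.022, edgeR). The call was lost without vehicle replicate 1, 2 or 3 (adjusted p = 0.061, 0.079 and 0.10) and without mitochondria replicate 3 (adjusted p = 0.052). In limma on log2(FPKM + 1) with no filter, the change was -0.41 and Ibsp passed (adjusted p = 0.0411, all genes 1.77%).

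Markers of osteoblasts and osteocytes, the cells in which Ibsp is best known, were low in both groups, though some lay above Ibsp. Of 9 listed, 8 had counts and 5 were tested, and edgeR called 0 (0 at an unadjusted p under 0.05), against 14.8% of all genes. DESeq2 called 0 of 8 (all genes 12.6%). With limma on log2(FPKM + 1), 0 of the 1 gene that passed its filter and 0 of 8 with no filter were called (all genes 22.2% and 1.77%). Calls are few among so few faint genes. The summed level was 2.62 to 3.59 CPM with vehicle and 3.37 to 3.66 CPM with mitochondria. Bglap2, an osteocalcin gene, lay at 0.579 to 2.31 FPKM and Sp7, an osteoblast transcription factor, at 0.321 to 0.653 FPKM. Dmp1, Phex and Sost, genes of mature osteocytes, stayed under 0.1 FPKM in all 6 libraries. Fgf23, also on the list, lay at 0.128, 0.0560 and 0.179 FPKM with vehicle and at 0.143, 0.250 and 0.523 FPKM with mitochondria. Its log2 fold change was 1.34 ± 0.73 (SE, adjusted p = 0.25, edgeR). The part of such cells in the Ibsp result was not tested.

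Ibsp and Spp1 lie 123.6 kb apart in a cluster of mineral-binding phosphoprotein genes on chromosome 5. Between them and 500000 bases to either side, the table listed 20 genes, 13 of them tested. Besides Ibsp, Thoc2l, related to an mRNA export factor, fell (-1.30, adjusted p = 0.024, edgeR), and no gene of the window rose. Of all genes tested, 14.8% were called (6.36% higher and 8.46% lower). Dmp1, a phosphoprotein of the same cluster, averaged 0.00666 FPKM with vehicle and was listed at 0 with mitochondria. Pkd2, the neighbour of Spp1 and the gene of a calcium channel, changed by -0.24 (adjusted p = 0.10).

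Mgp, the vitamin K-dependent protein that keeps cartilage and arteries free of mineral (ENSMUSG00000030218, chromosome 6, 136872435 to 136875823, minus strand), fell with mitochondria. It lay at 253, 312 and 289 FPKM with vehicle and at 143, 159 and 165 FPKM with mitochondria. The groups did not overlap, and the lowest vehicle library was well above the highest mitochondria library. It fell from 284.7 ± 30.01 to 156 ± 11.1 FPKM (SD, n = 3 per group), with a log2 fold change of -0.80 ± 0.10 (SE; adjusted p = 0.0044, edgeR). The call held in all 16 alternatives, with log2 fold changes of -0.87 to -0.74. Smooth muscle is another known source of Mgp. Of 5 smooth muscle markers, all with counts, 3 fell (Acta2, Tagln and Cnn1) and none rose, against 8.46% of all genes lower. Myh11 (0.0441 to 0.289 FPKM) changed by -1.54 (adjusted p = 0.088, edgeR) and Des by 0.30 (adjusted p = 0.59, edgeR). The summed level of the 5 was 410.5 to 648 CPM with vehicle and 157 to 187 CPM with mitochondria. Most of it was Acta2 (means of 346 CPM with vehicle and 90.5 CPM with mitochondria) and Tagln (200.5 and 72.6 CPM). Of 8 synovial fibroblast markers listed, 7 were tested: Cd34 rose and Thy1 and Dpp4 fell, against 14.8% of all genes called. The summed level of the 8 was 751 to 907 CPM with vehicle and 817 to 824 CPM with mitochondria. Of 5 endothelium markers listed, 4 were tested and 0 were called. They summed to 2.16 to 3.2 CPM with vehicle and 2.26 to 4.64 CPM with mitochondria. The part of smooth muscle cells, or of these other cell types, in the Mgp result was not tested.

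Pth1r, the receptor shared by parathyroid hormone and its related protein (ENSMUSG00000032492, chromosome 9, 110722085 to 110747145, minus strand), did not pass. It lay at 1.06, 1.80 and 2.005 FPKM with vehicle and at 1.82, 1.31 and 1.83 FPKM with mitochondria, so the groups overlapped and vehicle replicate 1 was the lowest library. The log2 fold change was 0.10 ± 0.26 (SE; 95% interval -0.50 to 0.69; adjusted p = 0.84, edgeR). It turned to -0.13 without vehicle replicate 1 and to -0.11 with GC offsets.

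**Figure D3:**
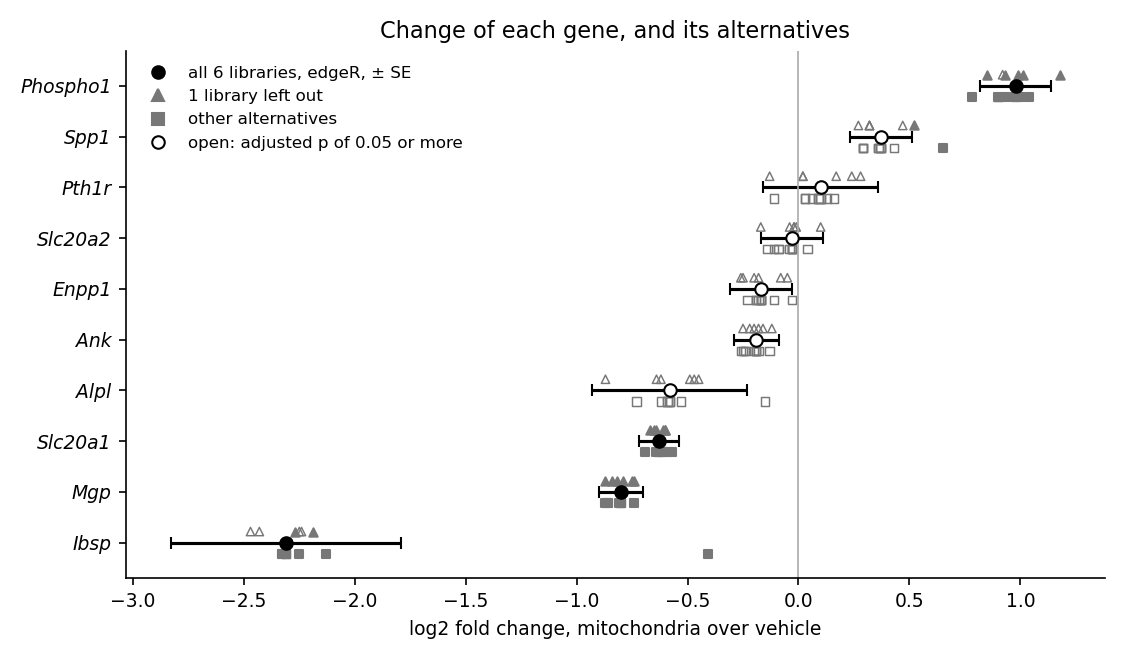
Log2 fold change of each gene, mitochondria over vehicle: circles with bars are the edgeR estimate from all 6 libraries ± SE, triangles are fits with 1 library left out and squares the other alternatives; open symbols have an adjusted p of 0.05 or more. Mgp and Slc20a1 stay filled throughout, between -0.87 and -0.57, while Spp1 is filled in 2 alternatives and the lone square of Ibsp at -0.41 is on the log2(FPKM + 1) scale.

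Around the 10 genes, 119 further genes of the mineralisation network were listed under 8 headings, and 100 of them were tested. Of these, 8 rose, 12 fell and 80 did not pass, which is 20 of 100 called against 14.8% of all genes, and their median log2 fold change was -0.02. Leaving out vehicle replicate 2 gave 1 higher and 3 lower (2.5% of all genes called in that fit). Leaving out vehicle replicate 3 gave 0 higher and 2 lower (all genes 2.46%), and leaving out mitochondria replicate 3 gave 3 higher and 5 lower (all genes 6.28%), so the network's calls became fewer as those of all genes did. Of the 20 called, only Gas6 and Pros1 passed in all 6 fits with 1 library left out.

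Genes that handle extracellular ATP and adenosine gave 3 higher and 1 lower among 20 tested, with a median log2 fold change of 0.12, against 14.8% of all genes called (6.36% higher and 8.46% lower). Panx1, a channel that releases ATP, rose from 2.58 ± 0.743 to 5.80 ± 0.816 FPKM (SD, n = 3; log2 1.24 ± 0.21 SE, adjusted p = 0.0097, edgeR). Nt5e (CD73), which turns AMP into adenosine and phosphate, rose from 10.2 ± 1.51 to 16.2 ± 2.66 FPKM (adjusted p = 0.017, edgeR). Gja1 (connexin 43), a gap junction and hemichannel protein, rose by 0.65 ± 0.16 (adjusted p = 0.028, edgeR). P2ry1, a receptor for ADP, fell by 3.12 on the log2 scale (adjusted p = 0.024, edgeR) from a mean of only 0.1196 FPKM. Each mitochondria library held 4 counts of it, taken as about 1 fragment, against 22, 37 and 54 counts with vehicle. With a minimum count of 10 in the filter, P2ry1 entered the test only through the vehicle libraries. P2ry1 passed in only 1 fit with a library left out, the one without vehicle replicate 1. Abcc6, a liver ATP exporter, was not tested and lay at 0 to 0.0189 FPKM. Leaving out vehicle replicate 2 or mitochondria replicate 3 gave 1 higher and 0 lower (all genes 2.5% and 6.28% called), and leaving out vehicle replicate 3 gave no call (all genes 2.46%). Leaving out mitochondria replicate 1 gave 4 higher and 0 lower, and mitochondria replicate 2 gave 2 and 1 (all genes 15.4% and 13.4%).

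Among 11 tested genes of phosphate transport and sensing, none rose and 1 fell, against 14.8% of all genes called, and the median was 0.00. It was Slc9a3r1 (NHERF1), a scaffold of phosphate carriers in the kidney, which fell from 38.2 ± 7.56 to 22.85 ± 3.0 FPKM (SD, n = 3; log2 -0.67 ± 0.16 SE, adjusted p = 0.026, edgeR). Xpr1, the phosphate exporter, changed by -0.65 ± 0.23 (95% interval -1.17 to -0.13; adjusted p = 0.092, edgeR), and passed in DESeq2 (adjusted p = 0.019) and without mitochondria replicate 1 (adjusted p = 0.046). Slc25a3, the phosphate carrier of the inner mitochondrial membrane, changed by -0.03 ± 0.08 (interval -0.20 to 0.15; adjusted p = 0.86) at 53.8 and 50.4 FPKM, and by 0.26 with GC offsets (adjusted p = 0.15). None of the 11 passed when vehicle replicate 2 or 3 or mitochondria replicate 3 was left out (all genes 2.5%, 2.46% and 6.28%). Slc9a3r1 was also lost without mitochondria replicate 2 (-0.57, adjusted p = 0.061), where 1 other gene, Ppip5k2, fell, and 3 fell without mitochondria replicate 1 (all genes 13.4% and 15.4%).

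Genes of matrix vesicles gave 1 higher and 2 lower of 10 tested, with a median of 0.08, against 6.36% of all genes higher and 8.46% lower. Smpd3, a membrane sphingomyelinase needed for mineral in bone and cartilage, fell from 1.58 ± 0.245 to 0.782 ± 0.104 FPKM (SD, n = 3; log2 -0.95 ± 0.19 SE, adjusted p = 0.015, edgeR). Of the calcium- and lipid-binding annexins, Anxa2 rose (0.47 ± 0.09, adjusted p = 0.012) and Anxa1 fell (-0.66 ± 0.16, adjusted p = 0.030), while Anxa5, the annexin best known from matrix vesicles, changed by 0.10 ± 0.08 (adjusted p = 0.43). No gene of the list passed without vehicle replicate 2 or 3, and Anxa2 alone was called when mitochondria replicate 3 was left out (all genes 2.5%, 2.46% and 6.28%).

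Of 7 tested mineral-binding bone matrix genes, none rose and 1 fell, against 14.8% of all genes called. Omd, a keratan sulfate proteoglycan that binds hydroxyapatite, lay at 1.77, 4.59 and 5.23 FPKM with vehicle and at 0.157, 0.454 and 0.8997 FPKM with mitochondria (log2 -2.86 ± 0.60 SE, adjusted p = 0.018, edgeR), and it did not pass without vehicle replicate 2 or 3 (all genes 2.5% and 2.46%). Col10a1, the collagen of hypertrophic cartilage, averaged 3.81 and 3.61 FPKM (log2 -0.01 ± 0.19, interval -0.45 to 0.43, adjusted p = 0.98). Its sign turned in 3 alternatives, with a largest positive value of 0.19 without mitochondria replicate 1.

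Calcification inhibitors and the vitamin K cycle gave no gene higher and 2 lower of 9 tested, with a median of -0.02, against 8.46% of all genes lower. Both, like Mgp, are carboxylated with the help of vitamin K: Gas6, a ligand of Axl-family receptors, fell from 119 ± 22.9 to 58.0 ± 7.13 FPKM (SD, n = 3; log2 -0.96 ± 0.15 SE) and Pros1 (protein S) from 27.7 ± 2.25 to 15.9 ± 1.89 FPKM (log2 -0.73 ± 0.11 SE; adjusted p = 0.0072 for each, edgeR). Ucma, also carboxylated and made in cartilage, changed by 0.71 ± 0.29 (adjusted p = 0.13). Ggcx, the carboxylase itself, changed by -0.02 ± 0.13 (95% interval -0.31 to 0.26; adjusted p = 0.93) at 10.04 and 9.41 FPKM, and its estimates ran from -0.15 to 0.05 over the 16 alternatives. Without mitochondria replicate 2 the list gave 1 higher and 3 lower (all genes 13.4%).

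Signalling through Pth1r and Indian hedgehog gave 1 higher and 3 lower of 19 tested, with a median of -0.09, against 6.36% of all genes higher and 8.46% lower. Gnaq, a G protein subunit that couples receptors to phospholipase C, fell (-0.54 ± 0.09 SE, adjusted p = 0.0097, edgeR). So did Nr4a2, a nuclear receptor gene switched on by parathyroid hormone (-1.06 ± 0.22, adjusted p = 0.018), and Gli3, a hedgehog transcription factor (-0.77 ± 0.17, adjusted p = 0.020). Arrb1, an arrestin that uncouples receptors, rose (0.48 ± 0.13, adjusted p = 0.038), but it passed in only 6 of 16 alternatives and, of the fits with a library left out, only in the one without vehicle replicate 1. Its adjusted p was 0.052 with GC offsets, 0.16 with vehicle replicate 2 or 3 left out, 0.052, 0.055 and 0.10 with mitochondria replicate 1, 2 or 3 left out, and 0.058 to 0.13 in limma. The ligand gene Pthlh was not tested and lay at 0 to 0.0635 FPKM. No gene of the list passed without vehicle replicate 2 or 3 (all genes 2.5% and 2.46%), 1 fell and none rose without mitochondria replicate 3 (6.28%), and 4 fell and none rose without mitochondria replicate 2 (13.4%).

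Among 16 transcription factors of hypertrophy and mineralisation, 2 rose and 1 fell, with a median of -0.23, against 6.36% of all genes higher and 8.46% lower. Sox9, which keeps chondrocytes from maturing, rose (0.54 ± 0.13 SE, adjusted p = 0.028, edgeR), as did Atf4, a stress-response factor also used by osteoblasts (0.55 ± 0.09, adjusted p = 0.0093). Of 6 fits with a library left out, Sox9 passed in 2 and Atf4 in 4. Mef2a, of the same family as the hypertrophy regulator Mef2c, fell (-0.92 ± 0.16, adjusted p = 0.011). Runx2, the main driver of hypertrophy, lay at 2.69 and 1.89 FPKM and changed by -0.43 ± 0.13 (95% interval -0.73 to -0.14; adjusted p = 0.055), and it passed in DESeq2 (0.034), with counts divided by 4 (0.044) and with GC offsets (0.024). Mef2c changed by -0.83 ± 0.29 (adjusted p = 0.086) and Sp7, the osteoblast factor downstream of Runx2, by -0.06 ± 0.33 (interval -0.82 to 0.70; adjusted p = 0.93). Without vehicle replicate 2 no factor rose and Mef2a fell, without vehicle replicate 3 none passed, 1 rose and 2 fell without mitochondria replicate 2, and 1 rose and 1 fell without mitochondria replicate 3 (all genes 2.5%, 2.46%, 13.4% and 6.28% in these 4 fits).

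Receptors of Spp1 and Ibsp gave 1 higher and 1 lower of 9 tested, with a median of -0.08, against 6.36% of all genes higher and 8.46% lower. Itgb3, the integrin chain of the main osteopontin receptor, rose from 0.910 ± 0.323 to 1.95 ± 0.229 FPKM (SD, n = 3; log2 1.17 ± 0.25 SE, adjusted p = 0.020, edgeR), and Itga9, another osteopontin-binding chain, fell (-0.87 ± 0.18, adjusted p = 0.017). Itgav, the partner of Itgb3, changed by 0.07 ± 0.11 (adjusted p = 0.74), and Cd44, a hyaluronan receptor that also binds osteopontin, by -0.29 ± 0.12 (adjusted p = 0.13). None passed when vehicle replicate 2 or 3 or mitochondria replicate 3 was left out, and 1 rose and 2 fell when mitochondria replicate 1 was (all genes 2.5%, 2.46%, 6.28% and 15.4%).

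**Figure D4:**
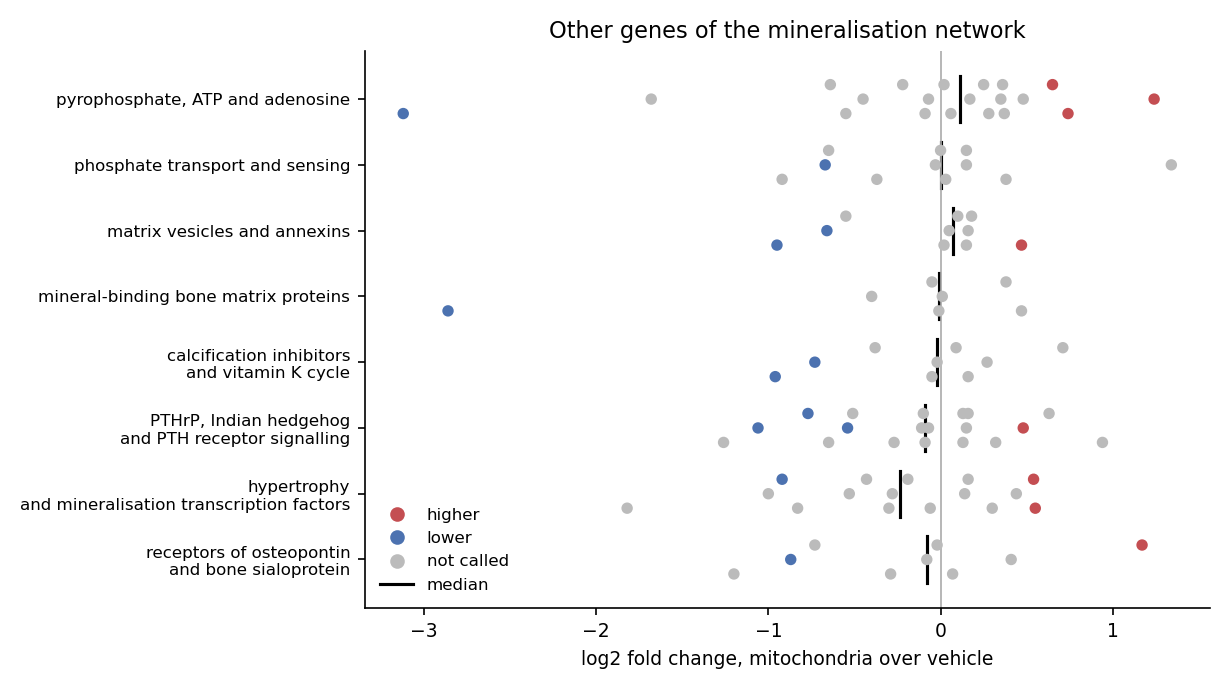
Log2 fold change (mitochondria over vehicle) of each tested network gene by list: red rose, blue fell, grey did not pass, and black bars are list medians. The medians lie between -0.23 and 0.12, and the largest falls are those of P2ry1 (-3.12, with 4 counts in each mitochondria library) and Omd (-2.86).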

How the data were processed

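The authors deposited 1 table with 2 values per gene and library: FPKM, normalised by the authors for transcript length and depth, and estimated counts, deposited as whole numbers without normalisation. Named in the submitters' processing notes, with no roles, are build mm8, StringTie 1.3.0, HISAT2 2.0 and Bowtie 0.12.2. Coordinates matched GENCODE M21 (GRCm38) in start and end for 25914 of 28732 genes (90.2%), among them all 10 reported here, and are given on GRCm38.

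After filterByExpr with a minimum count of 10 and TMM scaling, edgeR 4.0.16 (R 4.3.3) tested group, its only term, by two-sided quasi-likelihood with Benjamini-Hochberg adjustment over 17290 genes. Each SE was derived from the F statistic, so it is no evidence separate from p. More genes had a count of 4 than the mean of counts 2, 3, 5 and 6 (2.1 to 2.5 times), so 1 fragment was taken as 4 counts. Alternatives, 16 in all, used other scalings, no filter, DESeq2 1.42.0, counts divided by 4, GC offsets, a replicate block, limma 3.58.1 on log2(FPKM + 1) or log2(FPKM + 0.1), and each library left out. The edgeR fits (as reported, with GC offsets and with the block), DESeq2 and limma were tested on simulated data. The simulated counts lacked the steps of 4, and limma was given CPM in place of FPKM. These runs therefore do not check the fits on data like the deposited ones.

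All 10 genes are described. In the other lists, up to 5 called genes per direction with the largest change are named, and 12 genes whatever their result. Other genes named with values (Zfp652, Abi3, Anxa5, Ucma, Itgav, Ppip5k2, Thoc2l, Pkd2 and markers) were chosen after their values were seen. Genes and lists were chosen with earlier results of these data known.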

Additional observations from a re-analysis of the deposited data

How the results depend on the processing

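Over all genes, 1099 higher and 1463 lower calls became 357 and 507 with no filter on low counts, 161 and 301 in limma with no filter, 1704 higher with GC offsets, and 130 to 1086 higher and 310 to 1694 lower with 1 library left out. Of the 10 genes, 2 were higher with GC offsets, 0 in limma with no filter and 0 to 2 with 1 library left out. Of the network genes, 3 rose and 5 fell with no filter on low counts, 0 and 2 in limma with no filter, and 0 to 9 and 2 to 15 with 1 library left out. The cause was not tested. Estimates that changed sign, none of them called, were Slc20a2 (0.04 with upper-quartile scaling, -0.17 to 0.10 with 1 library left out, highest without mitochondria replicate 3), Pth1r (-0.11 with GC offsets, -0.13 to 0.28 with 1 library left out, lowest without vehicle replicate 1), Slc25a3 (0.03 with upper-quartile scaling, 0.26 with GC offsets), Ggcx (0.04 with upper-quartile scaling, -0.15 to 0.05 with 1 library left out), Sp7 (0.00 with the replicate block, -0.28 to 0.26 with 1 library left out) and Col10a1 (0.04 with upper-quartile scaling, -0.13 to 0.19 with 1 library left out).

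With the replicate number as a block, 898 genes were higher and 1386 lower, and of the 10 genes 1 was higher and 2 lower. Among the called genes named from the 10 genes and the network lists, Ibsp, P2ry1 and Slc9a3r1 did not pass with it (adjusted p = 0.053, 0.068 and 0.058, edgeR). The osteoclast marker Ctsk was lost with it as well. No clear sign of pairing by number was seen. Deviations from the group means had correlations of 0.0371, 0.00907 and -0.0152 for libraries of 1 number and of -0.0314 to 0.0257 for the others. Not every library correlated best with its own number. Whether libraries of 1 number shared a culture or animal cannot be told from these correlations. Depth limits Ibsp and Alpl, which rest on 9 to 79 fragments a group.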
